A study of Mus musculus with 6 samples.

Results

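The matrix metalloproteinases (MMPs), the ADAMs (a disintegrin and metalloproteinase) and the ADAMTS proteins (ADAMs with thrombospondin motifs) were examined in mouse kidneys in which TGF-β1 had induced fibrosis. The members were all genes whose symbol on the array is Mmp or Adam followed by a digit, or starts with Adamts, counted from probe sets annotated to a single gene. This gave 78 of the 20416 genes measured: 23 MMPs, 31 ADAMs and 24 ADAMTS genes, of which 5 are ADAMTSL genes, relatives that lack a protease domain. A further 3 family genes of the RefSeq annotation, Adam20, Adam34l and Adam6a, had no such probe set and were not analysed here.

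The arrays fell into 2 groups of 3, and nothing in the labels states that each is a separate animal. CBAxB6-TGFbeta (replicates 4, 5 and 6), named for a CBA and B6 background, is also labelled KO, and B6-TGFbeta (replicates 1, 2 and 3), on the B6 background, is also labelled WT. No knocked-out gene is named, and the sources used here do not give the promoter or agent that raised TGF-β1, nor the age and sex of each animal. Both groups carry TGF-β1 and induced fibrosis, and cohorts are described as littermates matched for age and sex. Background, the genotype behind the words KO and WT, and a different response to TGF-β1 cannot be told apart.

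MMPs are secreted or membrane-bound zinc proteases that cleave collagens, elastin, laminins and many non-matrix proteins, and are held in check by the TIMPs. ADAMs are membrane proteins, several of which act as sheddases that release growth factors, cytokines and adhesion molecules from the cell surface, while many others serve in sperm and egg fusion. ADAMTS proteases are secreted and cut proteoglycans such as versican and aggrecan, procollagens and von Willebrand factor. In the injured kidney these enzymes are known for matrix turnover, basement membrane breakdown and the release of EGF receptor ligands and TNF.

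Values are log2 intensities per gene, the median polish of all probe sets of that gene, so that 1 unit is a doubling of signal. Intensities of different genes are not compared, because probes differ in brightness. Array medians ran from 7.27 to 7.34, and arrays correlated over all probe sets at 0.953 to 0.963 within CBAxB6-TGFbeta, 0.965 to 0.971 within B6-TGFbeta and 0.946 to 0.954 between the groups. Of 8 measured kidney marker genes, all had lower means in CBAxB6-TGFbeta and 6 passed as lower, with the mean of the list at 9.86 to 10 in CBAxB6-TGFbeta arrays and 10.68 to 10.85 in B6-TGFbeta arrays. B6-TGFbeta replicate 2 stood apart in genes of brown fat and adrenal, with Ucp1 at 10.93 against 5.13 to 6.22 in the other 5 arrays and Chgb at 11.21 against 5.80 to 6.32. In whole kidney, more cells of a type and more RNA per cell cannot be told apart.

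Most genes of the 3 families did not pass. At an adjusted p under 0.05 in limma, with Benjamini-Hochberg adjustment over all genes, 6 members were higher in CBAxB6-TGFbeta (Mmp7, Mmp8, Mmp10, Mmp27, Adam8 and Adamts1), 3 were lower (Adam1b, Adam6b and Adamtsl2) and 69 did not pass. These 9 members were 11.5% of the 78, against 7.65% of all genes that passed. Split by direction, the background was 3.08% of all genes higher and 4.57% lower. By subfamily, 4 MMPs were higher and none was lower, 1 ADAM was higher and 2 were lower, and 1 ADAMTS gene was higher and 1 was lower. For the MMPs lower in CBAxB6-TGFbeta, limma gave 0 calls, and 0 to 1 over all arrays left out in turn.

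The median log2 difference, CBAxB6-TGFbeta minus B6-TGFbeta, was 0.11 for the MMPs, -0.04 for the ADAMs and 0.09 for the ADAMTS genes, beside 0.02 for all genes. The 3 arrays of one group did not overlap the 3 of the other in 26 of 78 members (33.3%), against 26.8% of all genes. Of the 69 members that did not pass, 45 had a 95% confidence interval that lay within 0.5 on either side of 0, and 65 had one within 1. A difference of more than 2-fold was therefore inside the interval of only 4 of these members. Among the members, 30 lay in the dimmest 25% of all genes, 9 MMPs, 17 ADAMs and 4 ADAMTS genes, and 3 of the 9 that passed were among them (Mmp8, Mmp27 and Adam6b). Without B6-TGFbeta replicate 1, 2 members were higher and none was lower, and without B6-TGFbeta replicate 3, 2 were higher and 1 was lower, while the calls over all genes fell to 494 and 711, against 1562 with all arrays.

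**Figure D1:**
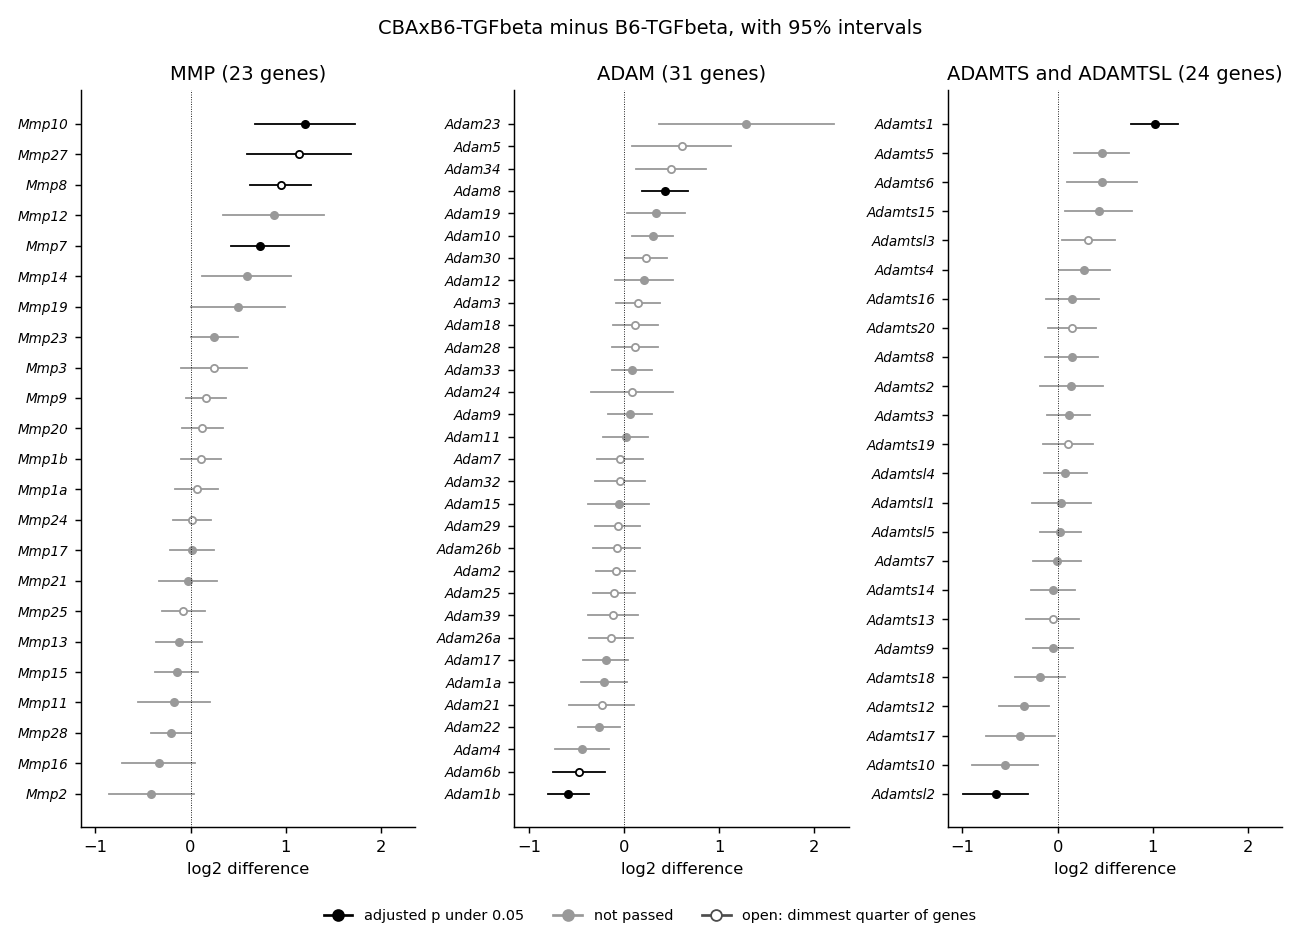
Log2 difference of each of the 78 members, CBAxB6-TGFbeta minus B6-TGFbeta, as points with 95% confidence intervals from limma, ordered by size within each subfamily. Black marks the 9 members past the threshold, grey the 69 others, and open points the 30 members in the dimmest 25% of all genes.

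The 4 MMPs that passed lie in 1 cluster of 10 MMP genes on chromosome 9, whose order in the RefSeq annotation is Mmp13, Mmp12, Mmp1b, Mmp3, Mmp1a, Mmp10, Mmp8, Mmp27, Mmp20 and Mmp7, with 0 other measured protein-coding genes between them. This grouping was made after the values were seen and has no test. Of the 10 cluster genes, 4 were higher and 9 had a positive difference, with a median of 0.49. Of all genes, 3.08% passed as higher and 11001 of 20416 had a positive difference. Of the 13 MMPs elsewhere in the genome none passed, and their median was -0.03.

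Mmp7 encodes matrilysin, a small MMP made by epithelial cells that cleaves E-cadherin and matrix proteins. Its log2 intensity was 7.34, 6.84 and 6.94 in CBAxB6-TGFbeta and 6.39, 6.29 and 6.24 in B6-TGFbeta. All 3 CBAxB6-TGFbeta arrays were higher than every B6-TGFbeta array, and the highest was replicate 4. The log2 difference was 0.73 (SE 0.14), 1.66-fold, with an adjusted p of 0.0137 in limma, and all 7 probe sets were higher. Mmp7 missed the threshold without B6-TGFbeta replicate 1 (adjusted p 0.0520) or 3 (0.0634), and on its brightest probe set (0.36, adjusted p 0.321).

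Mmp10 encodes stromelysin 2, which cleaves proteoglycans and activates other MMPs. It had 6.45, 6.81 and 7.25 in CBAxB6-TGFbeta and 5.27, 6.07 and 5.56 in B6-TGFbeta. The groups did not overlap, and B6-TGFbeta replicate 2 was the nearest to the CBAxB6-TGFbeta arrays. Between the groups the log2 difference was 1.20 (SE 0.23), 2.31-fold, with an adjusted p of 0.0165 in limma. Its probe sets differed widely, with 8 of 9 higher. From the brightest to the dimmest they gave 0.12, 2.04, 0.05, -0.02, 1.63, 2.08, 0.99, 3.24 and 0.80. Without the dimmer 50% of probe sets the difference was 0.32 with an adjusted p of 0.256 in limma. The call was also lost when B6-TGFbeta replicate 1 (0.0746), B6-TGFbeta replicate 3 (0.0751) or CBAxB6-TGFbeta replicate 5 (0.0553) was left out.

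Mmp8 encodes the collagenase of neutrophils. It had 5.40, 5.58 and 5.94 in CBAxB6-TGFbeta and 4.76, 4.77 and 4.55 in B6-TGFbeta, a log2 difference of 0.95 (SE 0.14), 1.93-fold, with an adjusted p of 0.00562 in limma. All CBAxB6-TGFbeta arrays were above the B6-TGFbeta arrays, and all 11 probe sets were higher. Mmp8 passed with each array left out in turn on the gene values of all 6 arrays. With the gene summary repeated on 5 arrays it passed in 0 of 6 such fits (adjusted p 0.0595 to 0.234), at differences of 0.76 to 0.99. In these fits 0.279% to 2.71% of all genes passed, against 7.65% with all arrays. Mmp8 also missed the threshold on its brightest probe set (0.75, adjusted p 0.107) and without moderation of the variances (0.129). Of 8 measured neutrophil markers, 1 passed as higher (Retnlg, 0.68, SE 0.13) and 7 did not pass, and Retnlg missed the threshold without any 1 of the B6-TGFbeta arrays (adjusted p 0.0612, 0.0534 and 0.0599). The mean of that list was 5.48 to 5.62 in CBAxB6-TGFbeta and 5.24 to 5.43 in B6-TGFbeta. Among the 7 that did not pass, S100a9 (0.50) and S100a8 (0.28) had groups that did not overlap, and the other 5 (Ngp, Csf3r, Mpo, Camp and Ltf) had differences of 0.14 to -0.04 and overlapping groups. The part of neutrophils in the Mmp8 difference was not tested.

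Mmp27 encodes a stromelysin-like MMP. It had 6.52, 5.75 and 5.37 in CBAxB6-TGFbeta and 4.62, 4.73 and 4.87 in B6-TGFbeta. The groups did not overlap, but the CBAxB6-TGFbeta arrays spread widely, with an SD of 0.59 against 0.13 in B6-TGFbeta. The fitted log2 difference was 1.14 (SE 0.24), 2.20-fold, with an adjusted p of 0.0245 in limma and all 9 probe sets higher. The call was lost without any 1 of the B6-TGFbeta arrays (adjusted p 0.105, 0.0598 and 0.0746) or without CBAxB6-TGFbeta replicate 5 (0.0610). It was also lost on the brightest probe set (0.99, adjusted p 0.203).

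**Figure D2:**
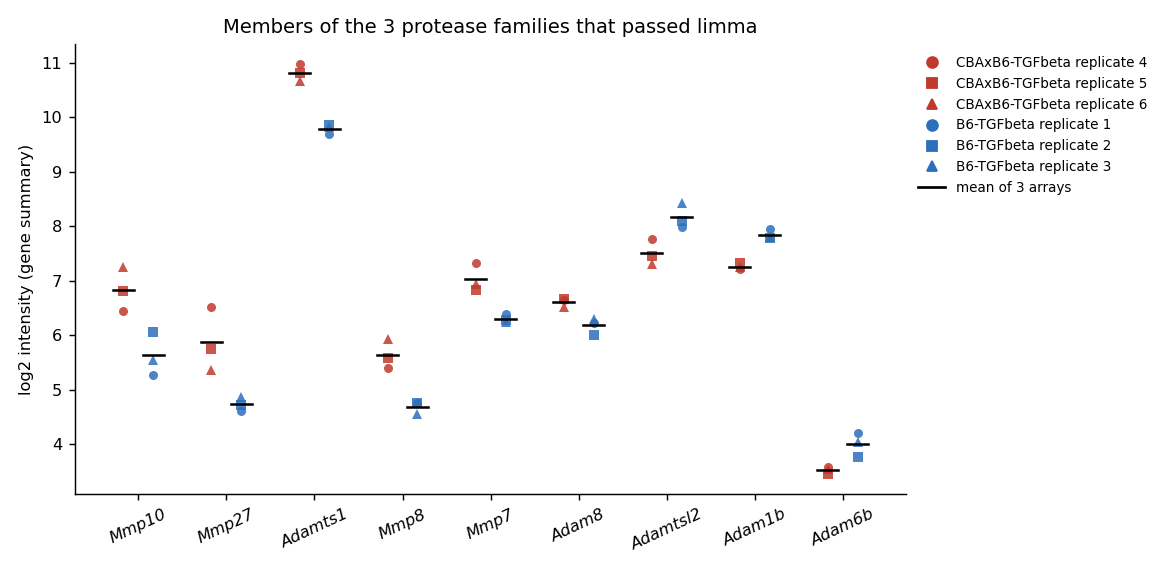
Log2 intensity of the 9 members that passed, for each array (symbols) with the mean of 3 arrays (bars), CBAxB6-TGFbeta left of B6-TGFbeta for each gene. For each of the 9 genes the arrays of the groups lie apart, and CBAxB6-TGFbeta arrays spread most for Mmp27.

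Mmp12, the elastase of macrophages, stood just outside the threshold. It had 7.74, 6.85 and 7.25 in CBAxB6-TGFbeta and 5.98, 6.64 and 6.59 in B6-TGFbeta, with no overlap. The log2 difference was 0.88 (SE 0.24, 95% interval 0.35 to 1.41) with an adjusted p of 0.0558 in limma, and it passed under 7 of 16 other ways of processing, with adjusted p over all 16 from 0.0221 to 0.297. Its brightest probe set gave 1.56. Of 10 macrophage markers 9 passed as higher and Csf1r did not pass, and the list mean was 8.55 to 9.09 in CBAxB6-TGFbeta and 7.33 to 7.60 in B6-TGFbeta. The part of macrophage number in the Mmp12 value was not tested.

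The remaining cluster genes did not pass. Mmp3, stromelysin 1, had 5.63, 5.80 and 6.09 in CBAxB6-TGFbeta and 5.74, 5.31 and 5.72 in B6-TGFbeta, a log2 difference of 0.25 (95% interval -0.10 to 0.60). Mmp13, the main interstitial collagenase of rodents, had 6.03, 6.12 and 6.08 in CBAxB6-TGFbeta and 6.08, 6.13 and 6.37 in B6-TGFbeta, a difference of -0.12 (-0.36 to 0.12). Mmp1a, Mmp1b and the tooth enamel protease Mmp20 stood at 0.07, 0.11 and 0.12. Mmp1a and Mmp1b are close copies whose probe sets could share signal. Among the 5 nearest measured protein-coding genes on each side of the cluster, 2 of 10 passed, both higher: Casp12 (0.97) before it and Birc3 (1.10) after it. Of all genes, 3.08% passed as higher, and the neighbours were not tested as a set.

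**Figure D3:**
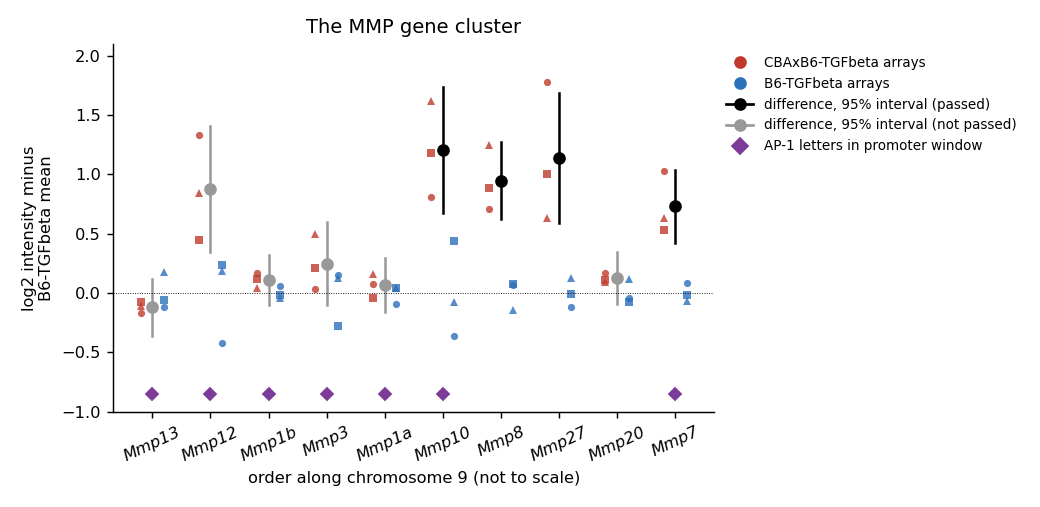
Log2 intensity of each array relative to the B6-TGFbeta mean for the 10 MMP genes of the chromosome 9 cluster, in chromosomal order and not to scale, with the difference and its 95% confidence interval. Diamonds mark genes with the AP-1 letters in a promoter window: 7 of 10 have them, and of these Mmp7 and Mmp10 passed.

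The start site windows of the cluster were read because the MMPs that passed share this locus. AP-1, the dimer of Fos and Jun proteins, is a textbook regulator of several MMP genes through a site a little upstream of the start. Its letters TGAGTCA, searched on both strands, were present in the window from 250 bases before to 50 bases after the start in 7 of the 10 cluster genes (70.0%), in 0 of 8 other MMPs with a window, and in 5.95% of all 27025 genes with a window. Windows come from RefSeq (GRCm38.p6), which held them for 47 of the 78 members, 52 windows in all. In the cluster the letters began 35 to 93 bases before the start. The 150 bases that end just before the start are shown for the 4 cluster genes that passed, for Mmp12 and for Mmp13, with the AP-1 letters in capitals.
Mmp7 (chr9:7691940-7692089, + strand): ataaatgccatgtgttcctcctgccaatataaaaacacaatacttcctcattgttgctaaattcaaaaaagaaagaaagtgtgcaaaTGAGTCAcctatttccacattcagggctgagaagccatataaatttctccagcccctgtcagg
Mmp10 (chr9:7502192-7502341, + strand): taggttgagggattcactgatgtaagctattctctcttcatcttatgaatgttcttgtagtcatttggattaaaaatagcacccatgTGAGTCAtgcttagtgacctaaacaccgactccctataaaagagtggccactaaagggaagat
Mmp12 (chr9:7347224-7347373, + strand): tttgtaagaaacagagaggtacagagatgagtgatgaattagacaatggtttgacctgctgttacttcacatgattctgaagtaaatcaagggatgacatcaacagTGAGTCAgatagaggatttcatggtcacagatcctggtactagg
Mmp13 (chr9:7272364-7272513, + strand): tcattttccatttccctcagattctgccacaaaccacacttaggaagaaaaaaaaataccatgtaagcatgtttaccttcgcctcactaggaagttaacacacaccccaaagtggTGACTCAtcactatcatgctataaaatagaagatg
Mmp8 (chr9:7558279-7558428, + strand): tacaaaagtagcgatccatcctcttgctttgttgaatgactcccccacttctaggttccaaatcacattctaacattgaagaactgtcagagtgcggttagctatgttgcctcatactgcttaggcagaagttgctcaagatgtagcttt
Mmp27 (chr9:7571246-7571395, + strand): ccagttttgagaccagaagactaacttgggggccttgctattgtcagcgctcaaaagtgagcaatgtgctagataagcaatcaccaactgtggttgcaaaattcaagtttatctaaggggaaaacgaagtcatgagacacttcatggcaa
Mmp7 and Mmp10 passed and carry the letters, each 63 bases before the start. Mmp8 and Mmp27 passed without them in this window. Mmp12, Mmp13, Mmp3, Mmp1a and Mmp1b carry them and did not pass. Among the other subfamilies the letters were in 3 of 15 ADAMs with a window, Adam1b, which passed, and Adam19 and Adam29, which did not, and in 0 of 14 ADAMTS genes. Mmp7 and Mmp12 have 2 windows each in RefSeq, and the letters lie in 1 of them, the one shown. The letters of the EGR family, GCGNGGGCG on both strands, were in 0 of 10 cluster genes, in 3 of 8 other MMPs (Mmp11, Mmp14 and Mmp24) and in 6.27% of all genes. The stricter GCGTGGGCG was in 0 of 47 members and in 0.707% of all genes. No value here bears on binding of either factor.

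Outside the cluster, no MMP passed, and the collagen and gelatin degrading enzymes come first here. Mmp14, the membrane protease that activates MMP2 and cleaves collagen I, had 10.41, 9.74 and 9.44 in CBAxB6-TGFbeta and 9.25, 9.24 and 9.32 in B6-TGFbeta. The groups did not overlap and all 12 probe sets were higher, but CBAxB6-TGFbeta replicate 4 lay well above replicates 5 and 6. Between the groups the log2 difference was 0.59 (SE 0.21, 95% interval 0.12 to 1.06) with an adjusted p of 0.133 in limma. Without CBAxB6-TGFbeta replicate 4 it was 0.32 (adjusted p 0.169), and without CBAxB6-TGFbeta replicate 6 it was 0.80 (0.0328). Mmp14 passed under 2 of 16 other ways of processing.

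Mmp2, gelatinase A, had 9.65, 9.20 and 8.74 in CBAxB6-TGFbeta and 9.62, 9.49 and 9.71 in B6-TGFbeta. The groups overlapped, and replicate 4 sat with the B6-TGFbeta arrays while replicates 5 and 6 were lower. The difference was -0.41 (95% interval -0.86 to 0.04), with 13 of 14 probe sets lower and an adjusted p of 0.279 in limma. Without CBAxB6-TGFbeta replicate 4 it was -0.64 (adjusted p 0.0402), and without CBAxB6-TGFbeta replicate 6 it was -0.18 (0.560). Mmp2 passed under 1 of 16 other ways of processing. Mmp9, gelatinase B of leukocytes, had 5.80, 5.88 and 5.73 in CBAxB6-TGFbeta and 5.64, 5.61 and 5.68 in B6-TGFbeta. It lay in the dimmest 25% of genes, and its difference of 0.16 (-0.05 to 0.37) turned to -0.22 on its brightest probe set. Mmp19 and Mmp23 had differences of 0.50 and 0.25 and overlapping groups.

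Spread within the groups was described by the SD over 3 arrays. The median SD of the 23 MMPs was 0.23 in CBAxB6-TGFbeta and 0.11 in B6-TGFbeta, and it was larger in CBAxB6-TGFbeta for 16 of 23. For the ADAMTS genes the medians were 0.17 in CBAxB6-TGFbeta and 0.12 in B6-TGFbeta, and the SD was larger in CBAxB6-TGFbeta for 18 of 24. For the ADAMs they were 0.10 in CBAxB6-TGFbeta and 0.11 in B6-TGFbeta, with 16 of 31 larger in CBAxB6-TGFbeta. The SD over all genes is not given here. Over all probe sets the arrays correlated at 0.953 to 0.963 within CBAxB6-TGFbeta and 0.965 to 0.971 within B6-TGFbeta. Whether the spread is particular to these families, or differs between subfamilies, was not tested.

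Of the ADAMs, 1 was higher and 2 were lower. Adam8, a sheddase of macrophages, neutrophils and osteoclasts, had 6.65, 6.66 and 6.53 in CBAxB6-TGFbeta and 6.23, 6.02 and 6.31 in B6-TGFbeta. All CBAxB6-TGFbeta arrays were above the others by a narrow gap. The fitted log2 difference was 0.43 (SE 0.11), 1.35-fold, with an adjusted p of 0.0437 in limma, and 20 of 23 probe sets were higher. The call held in 1 of the 6 fits with an array left out, the one without CBAxB6-TGFbeta replicate 6, with adjusted p over the 6 from 0.0478 to 0.142. The macrophage genes given beside Mmp12 were higher in the same arrays, and their part in the Adam8 value was not tested.

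Adam1b encodes the alpha subunit of fertilin, known from sperm. It had 7.21, 7.33 and 7.25 in CBAxB6-TGFbeta and 7.96, 7.79 and 7.81 in B6-TGFbeta, a clear gap with small spread in both groups. The log2 difference was -0.59 (SE 0.10), 0.666-fold, with an adjusted p of 0.00785 in limma, and 0.0506 without B6-TGFbeta replicate 1. It rested on 2 probe sets, at -0.79 and -0.38. Its close relative Adam1a had 7.22, 7.01 and 7.28 in CBAxB6-TGFbeta and 7.36, 7.49 and 7.30 in B6-TGFbeta, a difference of -0.21 (95% interval -0.46 to 0.03), and signal shared between them was not tested.

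Adam6b, a gene known from testis, rested on 1 dim probe set. It had 3.59, 3.47 and 3.54 in CBAxB6-TGFbeta and 4.21, 3.77 and 4.04 in B6-TGFbeta, a difference of -0.47 (SE 0.12) with an adjusted p of 0.0495 in limma. It passed with B6-TGFbeta replicate 2 left out and missed the threshold in the other 5 such fits (0.0702 to 0.186), and with array medians centred adjusted p was 0.0604. Of 5 testis markers none passed (limma over all genes, and 0 at an unadjusted p under 0.05), and the list mean was 5.50 to 5.85 in CBAxB6-TGFbeta and 5.69 to 5.76 in B6-TGFbeta.

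The main sheddases did not pass. Adam10, which sheds Notch receptors, E-cadherin and CX3CL1, had 10.14, 9.98 and   9.997 in CBAxB6-TGFbeta and 9.81, 9.67 and 9.73 in B6-TGFbeta. The groups did not overlap and 17 of 18 probe sets were higher, but the difference was small at 0.30 (SE 0.10, 95% interval 0.08 to 0.52) with an adjusted p of 0.105 in limma. Adam17, which sheds TNF, TGF-α and amphiregulin, had 9.25, 9.16 and 9.32 in CBAxB6-TGFbeta and 9.38, 9.60 and 9.35 in B6-TGFbeta. Its arrays were slightly lower in CBAxB6-TGFbeta without overlap, the difference was -0.19 (-0.43 to 0.04), and on the brightest probe set it was 0.20.

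Adam23, which lacks an active protease site and binds integrins, had the largest difference of the 78 members, 1.29, but did not pass. It had 9.06, 7.40 and 7.30 in CBAxB6-TGFbeta and 6.26, 6.73 and 6.92 in B6-TGFbeta. CBAxB6-TGFbeta replicate 4 was far above replicates 5 and 6, and the groups did not overlap. The 95% interval was 0.37 to 2.20 with an adjusted p of 0.0967 in limma, without replicate 4 the difference was 0.72, and on its brightest probe set it was 0.31. Among the meltrins, Adam12 had a difference of 0.21 (-0.10 to 0.51) and Adam19 one of 0.34 (0.03 to 0.64), which turned to -0.20 on its brightest probe set. Adam4 (-0.44) and Adam34 (0.50) also missed the threshold, with adjusted p of 0.0679 and 0.109.

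Of the ADAMTS genes, Adamts1 had the smallest p of all 78 members. Adamts1 encodes a secreted protease that cuts versican and aggrecan and is needed for normal kidney development in mice. It had 10.97, 10.81 and 10.67 in CBAxB6-TGFbeta and 9.69, 9.87 and 9.82 in B6-TGFbeta. The groups were separated by more than the range within either group. Between the groups the log2 difference was 1.02 (SE 0.11), 2.03-fold, with an adjusted p of 0.00108 in limma, and all 11 probe sets were higher. The call held with each array left out in turn on the gene values of all 6 arrays, at differences of 0.94 to 1.10. With the gene summary repeated on 5 arrays it held in 2 of 6 such fits, those without CBAxB6-TGFbeta replicate 4 or 6. Over these 6 the adjusted p ran from 0.0211 to 0.0714 and the difference from 0.92 to 1.06, while 0.279% to 2.71% of all genes passed. The call was lost without moderation of the variances (adjusted p 0.0666), where 0.309% of all genes passed. The Adamts1 start site window, shown as the upstream stretch of the member with the smallest p, held neither the AP-1 nor the EGR letters (GRCm38.p6).
Adamts1 (chr16:85803114-85803263, - strand): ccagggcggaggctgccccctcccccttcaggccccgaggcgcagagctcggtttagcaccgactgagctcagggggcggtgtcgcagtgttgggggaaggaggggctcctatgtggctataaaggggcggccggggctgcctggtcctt

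Adamts5, the aggrecanase next to Adamts1 on chromosome 16, had 10.56, 10.57 and 10.43 in CBAxB6-TGFbeta and 10.05, 10.29 and 9.83 in B6-TGFbeta. The groups did not overlap and all 8 probe sets were higher. The difference was 0.46 (SE 0.13) with an adjusted p of 0.0594 in limma, and it passed under 6 of 16 other ways of processing. These included the fit without B6-TGFbeta replicate 2 (0.0371), the array with fat and adrenal genes. The other passing fits kept that array. Of the 5 nearest measured genes on each side of this pair, 3 of 10 passed, 2 higher and 1 lower. Of all genes, 3.08% passed as higher and 4.57% as lower, and these neighbours were not tested as a set. Of 8 fibroblast genes 2 passed as higher (Thy1, 1.74, and Lum, 1.54), with a list mean of 9.79 to 10.08 in CBAxB6-TGFbeta and 9.21 to 9.44 in B6-TGFbeta. The 6 others did not pass: Acta2 (0.55), Postn (0.43), Col1a1 (0.36), Dcn (0.26), Pdgfrb (0.01) and Pdgfra (-0.11). The call for Lum was lost when B6-TGFbeta replicate 1 (adjusted p 0.148), B6-TGFbeta replicate 3 (0.142), CBAxB6-TGFbeta replicate 4 (0.0733) or CBAxB6-TGFbeta replicate 6 (0.0772) was left out. The part of these cells in the ADAMTS values was not tested.

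Adamtsl2 encodes a secreted protein without a protease domain that binds fibrillin and the latent TGF-β binding protein LTBP1. It had 7.78, 7.46 and 7.32 in CBAxB6-TGFbeta and 7.99, 8.10 and 8.42 in B6-TGFbeta. All CBAxB6-TGFbeta arrays were lower. The fitted log2 difference was -0.65 (SE 0.15), 0.637-fold, with an adjusted p of 0.0330 in limma and 18 of 19 probe sets lower. The exception was the brightest probe set, at 0.35, and of the 6 fits with an array left out only the one without CBAxB6-TGFbeta replicate 4 kept the call (adjusted p over the 6 from 0.0159 to 0.115).

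Others with related roles did not pass. Adamts10, which binds fibrillin, had 7.84, 7.87 and 7.33 in CBAxB6-TGFbeta and 8.23, 8.09 and 8.38 in B6-TGFbeta, a difference of -0.55 (SE 0.15) with an adjusted p of 0.0642. Adamts12, which cleaves cartilage oligomeric matrix protein, had a difference of -0.35 (95% interval -0.62 to -0.09), with all 24 probe sets lower and an adjusted p of 0.113. Adamts6 stood at 0.46 with overlapping groups. The aggrecanase Adamts4 stood at 0.28 (0.01 to 0.55), the procollagen protease Adamts2 at 0.14 (-0.19 to 0.48) and Adamts13, which cuts von Willebrand factor, at -0.05 (-0.33 to 0.22).

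**Figure D4:**
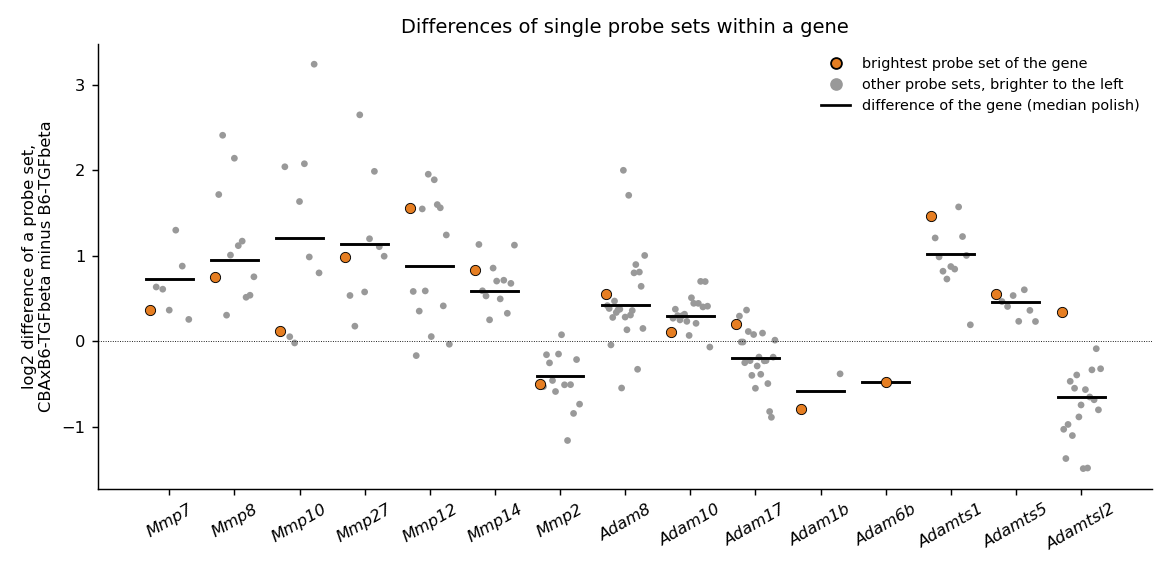
Log2 difference of every probe set of 15 members, CBAxB6-TGFbeta minus B6-TGFbeta, from the brightest (orange) to the dimmest within a gene, with the difference of the gene as a bar. The brightest probe set lies near 0 for Mmp10 (0.12) and on the opposite side of 0 for Adamtsl2 (0.35) and Adam17 (0.20).

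Inhibitors, activators and substrates of the proteases were read beside them from 6 lists. Together they held 98 measured genes, of which 74 did not pass, while 13 passed as higher and 11 as lower. That is 13.3% higher and 11.2% lower, against 3.08% and 4.57% of all genes. No list was tested as a set. Among 8 inhibitors, Timp1 was higher, at 9.33, 9.13 and 8.54 in CBAxB6-TGFbeta and 5.98, 6.31 and 6.08 in B6-TGFbeta. Its log2 difference of 2.88 (SE 0.19, adjusted p 0.000114 in limma) exceeded that of every MMP, ADAM and ADAMTS gene. Timp3, the matrix-bound inhibitor of ADAM17 and ADAMTS proteases, was lower (-0.46, SE 0.10, and -0.09 on its brightest probe set). The Timp3 call was lost when any 1 of the B6-TGFbeta arrays (adjusted p 0.134, 0.0660 and 0.0875) or CBAxB6-TGFbeta replicate 5 (0.102) was left out.

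Of 19 proteases and regulators that activate MMPs or work beside them, 4 were lower and 1 was higher, with a median of -0.23. The lower ones were Mep1a (-1.58, SE 0.17) and Mep1b (-1.74, SE 0.22), the meprins of the proximal tubule brush border, the proprotein convertase Pcsk6 (-0.83, SE 0.10) and the plasmin inhibitor Serpinf2 (-0.82, SE 0.13). The higher one was the protease inhibitor Serpine2 (0.63), whose call held in 1 of 6 fits with an array left out, that without CBAxB6-TGFbeta replicate 6 (adjusted p over the 6 from 0.0213 to 0.138). The kidney genes given above were lower in the same arrays, and their part in the meprin values was not tested. Furin, the convertase that activates MT-MMPs and many ADAMs, stood at -0.36 and did not pass, nor did Plau (-0.23), which generates plasmin. Plaur (0.77) and Plat (0.50) of the same list did not pass either, though their groups did not overlap and all 8 and 14 probe sets were higher. Over the list, 9 genes had a positive difference and 10 a negative one. None of 9 partners of ADAM10 and ADAM17, the iRhoms and TspanC8 tetraspanins, passed (limma, 3 at an unadjusted p under 0.05), with Tspan15 at -0.58 and Tspan14 at -0.35.

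Of 29 membrane proteins that ADAMs can shed, 6 were higher and 4 were lower, with a median of 0.08. The higher ones included Vcam1 (1.94, SE 0.11), Havcr1 (2.70, SE 0.17) and Cd44 (1.78, SE 0.21). The EGF receptor ligand Hbegf (0.90, SE 0.12) and the chemokine Cxcl16 (0.73, SE 0.11) were higher too. Klotho (Kl, -1.14, SE 0.11) and the phagocyte receptor Mertk (-0.78, SE 0.09) were lower.

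Of 17 substrates or partners of ADAMTS proteins, 3 were higher and none was lower, with a median of 0.16. Versican (Vcan), the proteoglycan cut by Adamts1, had 9.37, 9.74 and 9.48 in CBAxB6-TGFbeta and 7.36, 7.33 and 7.30 in B6-TGFbeta, a log2 difference of 2.20 (SE 0.11, adjusted p 4.63e-05 in limma). Fibrillin 1 (Fbn1, 0.60) and Col3a1 (0.60) were the others. Without B6-TGFbeta replicate 1 both missed the threshold (adjusted p 0.0520 and 0.0763), as did Col3a1 without CBAxB6-TGFbeta replicate 5 (0.0524). Of 16 basement membrane and matrix substrates of MMPs, Tnc (1.11, SE 0.12) and Spp1 (0.49, SE 0.09) were higher, and the collagen IV chains of the mature glomerular basement membrane Col4a3 (-0.47, SE 0.10) and Col4a4 (-0.40, SE 0.10) were lower, while 12 did not pass. With an array left out, Col4a4 passed in 0 of 6 fits (adjusted p 0.0635 to 0.132) and Col4a3 in 1, that without CBAxB6-TGFbeta replicate 6 (adjusted p 0.0434 to 0.0859). Spp1 missed the threshold without B6-TGFbeta replicate 1 (0.0633).

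**Figure D5:**
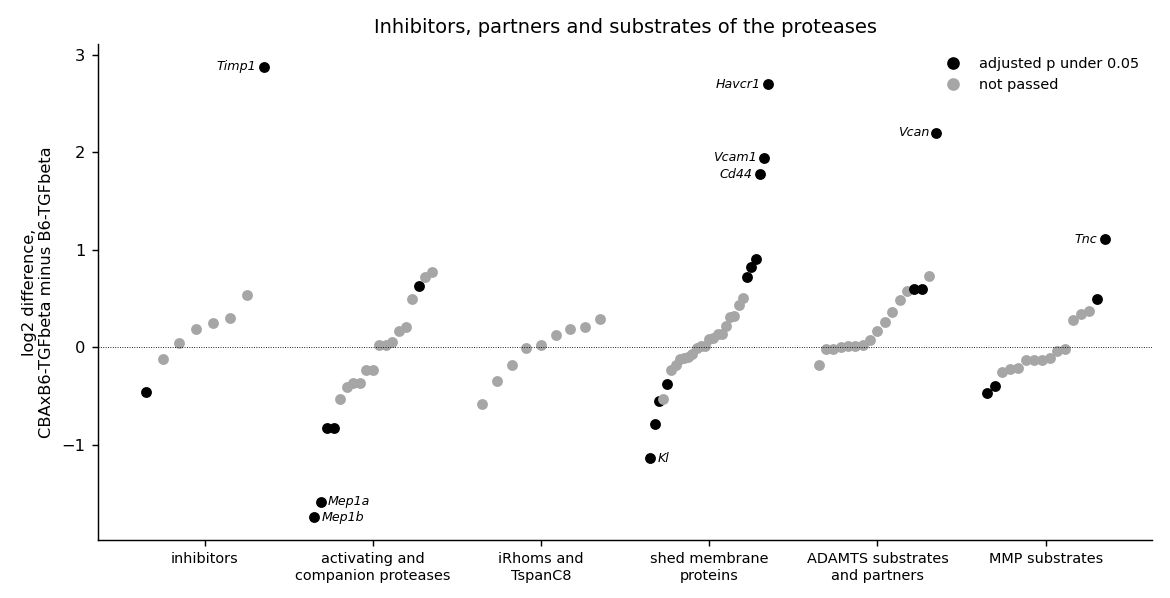
Log2 difference, CBAxB6-TGFbeta minus B6-TGFbeta, of 98 genes in 6 lists around the proteases, sorted within each list. Black points passed (13 higher and 11 lower), and those with a difference of at least 1 in size are named, from Timp1 at 2.88 to Mep1b at -1.74.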

How the data were processed

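The series compares total RNA from mouse kidneys on 2 groups of 3 Affymetrix arrays with several probe sets for most genes. The deposited values are log2 intensities, made by the authors with RMA and Partek per the submitters' processing notes, which give no versions or settings. The sources used here do not give the background correction, the normalization or the genome build behind the annotation. Intensities carry no depth, and precision is limited by the number of arrays. P-values of the main fit set the difference between groups against the spread of arrays within them, with variances moderated over all genes.

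Of 241576 probe sets, 212097 carried 1 symbol, 4475 several and 25004 none in the array annotation. Probe sets with 1 symbol were combined into 20416 genes by median polish. The 78 members rested on 1261 probe sets, and 9 that named a member together with another gene were left out. All 78 symbols are current in RefSeq. Differences were fitted with limma 3.58.1 (R 4.3.3) by 1 group term with moderated variances over all 6 arrays, as two-sided tests with Benjamini-Hochberg adjustment over the whole table. Errors of differences are moderated standard errors with 95% confidence intervals. The procedure was tested on simulated data. Log2 changes of 1 or 2 in size were recovered in 100% of changed genes. Changes of 0.5 were recovered in 42.4% and changes of -0.5 in 51.5%. Of 182 calls, 17 were on unchanged genes.

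The members, gene lists and tests were chosen with earlier results of these data known. The genes named are the members that passed, the 4 others of each subfamily with the smallest p, a set fixed by known roles in fibrosis or shedding, and up to 4 passing or 2 other genes of each list. Furin, Plau, Plaur, Plat, Serpine2, Mertk, Hbegf, Cxcl16, Adam1a, Mmp1a, Mmp1b, Mmp20 and Csf1r lie outside this rule. So do the neutrophil genes beside Retnlg, the fibroblast genes beside Thy1 and Lum, Ucp1, Chgb and the neighbours of the cluster. All of these were chosen after their values were seen, as was the cluster itself. Alternatives were other normalizations, gene summaries, filters, moderation and weights, and each array left out in turn. A fit that kept replicate 3 alone of the B6-TGFbeta arrays, and leaving arrays out with the gene summary repeated, were added after seeing the data.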

Additional observations from a re-analysis of the deposited data

How the results depend on the processing

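Counts of members that passed moved with several settings, and so did the calls over all genes. The calls were 7.65% of all genes in the main fit, 0.309% without moderation and 3.02% on the brightest probe set. They were 11.0% with array weights, 6.76% without the dimmer 50% of probe sets and 11.3% without the dimmest 25% of genes. Without moderation of the variances, 0 members passed in either direction, in the MMPs, ADAMs and ADAMTS genes alike, and 3 higher and 2 lower genes were left in the lists around the proteases. Taking only the brightest probe set per gene, 1 MMP, 0 ADAMs and 3 ADAMTS genes were higher, and 1 ADAM and 0 ADAMTS genes were lower, 1 member lower in all, with 3 lower genes in the lists. That MMP was Mmp12 (1.56, adjusted p 0.0343 in limma), which had not passed in the main fit. Mmp7, Mmp8, Mmp10 and Mmp27 all missed the threshold on their brightest probe sets (adjusted p 0.107 to 0.767). With array weights, 2 ADAMs and 3 ADAMTS genes were higher, 2 ADAMTS genes were lower and 20 genes of the lists were higher. Without the dimmer 50% of probe sets 0 ADAMs were higher and 1 was lower. Without the dimmest 25% of genes, 48 of the 78 members were left, and the filter removed Adam6b, Mmp8 and Mmp27. Among those left, 1 ADAM was lower, and 2 ADAMTS genes were higher and 2 lower. Centred array medians gave 1 ADAM lower and 2 ADAMTS genes higher, and quantile normalization and trended moderation gave 2 ADAMTS genes higher.

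Leaving out each array in turn, also with the gene summary repeated on 5 arrays (chosen after seeing the data), gave 0 to 8 members higher and 0 to 3 lower. By subfamily this was 0 to 5 MMPs higher and 0 to 1 lower, 0 to 1 ADAMs higher and 0 to 2 lower, and 0 to 2 ADAMTS genes higher and 0 to 1 lower. In the lists around the proteases it was 3 to 20 higher and 0 to 9 lower. With the summary repeated, at most 1 member passed in each direction, while 0.279% to 2.71% of all genes passed. When replicate 3 alone stood for B6-TGFbeta, also added, 0 MMPs, 0 ADAMs and 0 ADAMTS genes passed in either direction, and 4 list genes were higher and 0 lower; the lone array is assumed to vary like the other group.

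On the brightest probe set the difference changed sign for 21 of 78 members (4 MMPs, 10 ADAMs and 7 ADAMTS genes, 10 of them among the dimmest), of which 1, Adamtsl2 (0.35), had passed. The others include Mmp9 (-0.22), Mmp1a (-0.023), Adam17 (0.20) and Adam19 (-0.20), and outside the families Dbh changed sign (0.15). Adamts2 changed sign when replicate 3 alone stood for B6-TGFbeta (-0.049). Adamts13 gave 0.049 with array weights and -0.15 to 0.062 with an array left out, over the fits with and without the gene summary repeated. Over the same fits Acrv1 gave -0.30 to 0.0021. Csf1r gave -0.026 to 0.44 over them. The cause of these changes was not tested. No paired analysis was possible because the groups share no replicate numbers. Signal near background limits the 30 dimmest members.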
